A study of Mus musculus with 8 samples.

Results

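The TNF superfamily ligands described here are the products of 10 genes, Tnf, Lta, Ltb, Tnfsf14, Cd40lg, Fasl, Tnfsf10, Tnfsf11, Tnfsf8 and Tnfsf4. These genes were chosen by symbol as ligands that activated T cells are known to make, with earlier results of these data known. They are 10 of the 55335 genes in the deposited count table, and all 10 had enough counts to enter the test across 15378 genes. RNA came from tumor-infiltrating lymphocytes (TILs) of the CD8+CD44+PD-1+ phenotype, gated also on CD45.2 and TCR and sorted from MC38 tumors, a mouse colon carcinoma line, grown in C57BL/6 mice. The 4 WT samples were from Lsd1f/f mice and the 4 KO samples from Cd4-Cre+Lsd1f/f mice. Both groups thus carried the floxed Lsd1 alleles (Lsd1 is also called Kdm1a and encodes a histone demethylase), and only the KO mice carried Cre, whose Cd4 promoter is active in developing T cells of the CD4 and the CD8 lineage. A WT sample pools cells of 2 mice and a KO sample holds those of 1 mouse, at about 10000 to 20000 cells per sort, so a WT value is an average over mice and a KO value is not. The protocol gives day 18 after implantation, whereas the design text gives 14 days. The question asked of the ligands is which of them differed in RNA level between LSD1-deficient and WT PD-1+ CD8+ TILs.

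Ligands of the TNF superfamily are mostly membrane proteins that assemble as trimers and bind receptors of the TNF receptor superfamily on neighbouring cells, and some of them are also shed as soluble trimers. Receptors with a death domain can drive apoptosis, and the others recruit TRAF adaptors and activate NF-kB. CD8+ T cells use Fas ligand, TRAIL and TNF against target cells, lymphotoxins and LIGHT signal to stromal and myeloid cells, and CD40 ligand, CD30 ligand and OX40 ligand act in costimulation between T cells and antigen-presenting cells.

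Of the 10 genes, 4 lie on chromosome 17. Tnf, Lta and Ltb are next to each other within the major histocompatibility complex, with the start of Tnf 3.344 kb from that of Lta and 7.568 kb from that of Ltb, and Tnfsf14 is far away on the same chromosome. In the KO samples Tnf, Lta and Tnfsf14 rose and Ltb did not, so the bases upstream of these 4 genes are shown side by side. They are from RefSeq promoter windows on GRCm38.p6, 5′ to 3′ on the strand of each gene, and stop before the first annotated transcript start. The stretches are chr17:35202008-35202257 (minus strand) for Tnf, chr17:35205352-35205601 (minus strand) for Lta, chr17:35194257-35194438 (plus strand) for Ltb and chr17:57194182-57194431 (minus strand) for Tnfsf14. Capitals mark matches to the motifs searched.
Tnf: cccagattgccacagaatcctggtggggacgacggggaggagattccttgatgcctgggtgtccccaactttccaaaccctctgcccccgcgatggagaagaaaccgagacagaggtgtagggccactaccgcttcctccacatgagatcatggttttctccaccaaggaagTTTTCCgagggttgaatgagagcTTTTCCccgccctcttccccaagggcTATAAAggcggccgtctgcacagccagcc
Lta: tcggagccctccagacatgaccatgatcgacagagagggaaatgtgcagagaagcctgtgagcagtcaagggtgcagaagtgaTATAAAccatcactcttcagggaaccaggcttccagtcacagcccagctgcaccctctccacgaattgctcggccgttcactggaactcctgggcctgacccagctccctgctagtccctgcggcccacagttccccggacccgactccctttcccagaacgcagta
Ltb: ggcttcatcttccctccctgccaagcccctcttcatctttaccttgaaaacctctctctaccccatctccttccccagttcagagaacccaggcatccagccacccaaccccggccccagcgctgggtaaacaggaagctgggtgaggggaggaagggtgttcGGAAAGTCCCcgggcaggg
Tnfsf14: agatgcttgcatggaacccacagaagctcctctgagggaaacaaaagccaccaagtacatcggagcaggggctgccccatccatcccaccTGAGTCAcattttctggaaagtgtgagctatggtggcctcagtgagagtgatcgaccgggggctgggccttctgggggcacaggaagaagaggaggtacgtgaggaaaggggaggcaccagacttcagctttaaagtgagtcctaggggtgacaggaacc

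The motifs were GGG and TTTCC with 2 bases of any kind between them for NF-kB, GGAAAA for NFAT, CTTTGA for TCF/LEF and TGANTCA for AP-1, each searched on both strands, and TATAAA as a TATA box on the gene's strand. The search covered the whole windows, from 250 bases before to 50 bases after the RefSeq start, which were given for 8 of the 10 ligand genes (not for Cd40lg and Tnfsf4). The Tnf window held 2 NFAT matches, which begin at -78 and -55 (in bases from the start), and a TATA box at -29. Lta had a TATAAA match at -167 and no NFAT match. The only NF-kB match was in the window of Ltb, at -87 from its RefSeq start, which lies 68 bases inside the GENCODE gene. Tnfsf14 had an AP-1 match at -160 and Fasl an NFAT match at -227. The windows of Tnfsf10, Tnfsf11 and Tnfsf8 had no match to the letters searched. The TCF/LEF letters CTTTGA were in none of the 8 windows, and other forms of the site were not searched. CTTTGT, which differs from CTTTGA in its last base, is repeated in the Tnfsf10 window. The Tnfsf8 window holds CTTTGT on the other strand. Among 32851 mouse windows of the same length, 1.63% held the NF-kB letters, 23.4% the NFAT letters, 16% the TCF/LEF letters, 7.81% the AP-1 letters and 8.32% the TATA letters. A match describes letters only, and none of the matches overlapped another.

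Total counts on genes ranged from 11657807 to 30295406 per sample, and 3 counts correspond to 0.106 to 0.25 CPM depending on the sample. Levels are CPM, counts relative to the library total after TMM scaling. Samples carry the column numbers of the table, with WT as S1 to S4 and KO as S5 to S8. A gene counts as called where its p in edgeR's quasi-likelihood test, Benjamini-Hochberg adjusted over all 15378 genes, was under 0.01 and its fold change exceeded 1.5. Kdm1a, the deleted gene, was at 44.9 ± 1.87 CPM in WT and 30.6 ± 4.03 CPM in KO (SD, n = 4 each), with every KO sample below every WT sample and an edgeR adjusted p of 0.0163, which misses the threshold. The counts include the exons that Cre leaves in place. Of 8 CD8 T cell markers, 1 was called (Cd44, higher) and none was at 0, with Cd8a at 1340 CPM in WT and 1109 CPM in KO. Markers of macrophages and monocytes were called lower in 10 of 12 cases and those of CD4 T cells higher in 1 of 3, with levels given after the Cd40lg and Tnfsf4 results. No marker was called for B cells (2 tested), NK cells (3), neutrophils (1, with S100a9 and Retnlg at 0) or dendritic cells (1). Of 2 tested markers of tumor epithelium and stroma, Pecam1 was higher and Col1a1 was not called. On the same list Cdh5 had at most 7 counts in a sample and Krt8 was at 0.

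Among the 10 ligand genes, 4 rose in KO (Tnf, Lta, Tnfsf14 and Cd40lg), 1 fell (Tnfsf4) and 5 were not called (Ltb, Fasl, Tnfsf10, Tnfsf11 and Tnfsf8). Over all genes tested, 2.91% were called higher and 1.99% lower. Since the 10 genes were chosen with earlier results of these data known, this comparison is a description and no test of the family. The 4 genes that rose were also those in which all KO samples lay above all WT samples, which held for 8.99% of all genes, and Tnfsf4 was the only ligand gene in which all KO samples lay below all WT samples, which held for 8.28% of all genes. For each of these 5 genes the exact two-sided permutation test on log2 CPM gave p = 0.0286, the smallest that 4 against 4 samples allow. Groups without overlap can give no other p in this test, so it adds nothing to the separation. The median log2 fold change of the 10 genes was 0.18, beside -0.01 over all genes tested. In bulk RNA, fewer cells that express a gene and less RNA per cell cannot be told apart.

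**Figure D1:**
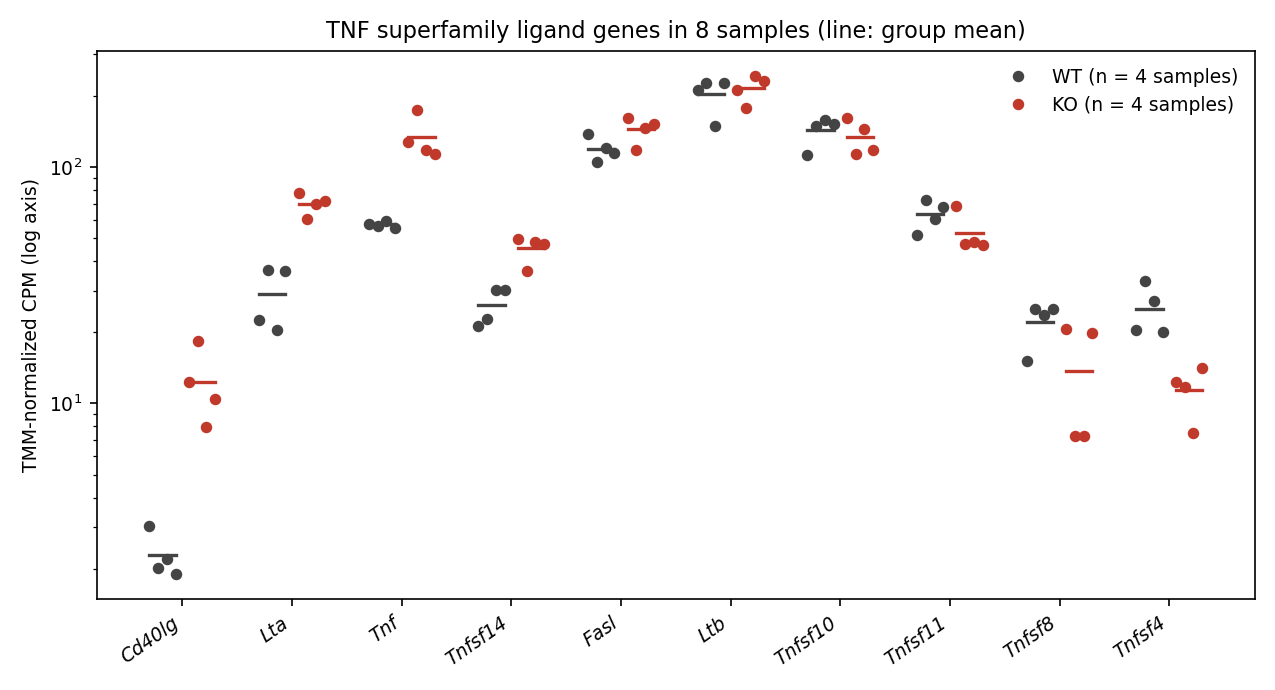
Levels of the 10 ligand genes in each of the 8 samples, as TMM-normalized CPM on a log axis, with WT in grey, KO in red and a line at each group mean. The KO points of Cd40lg, Lta, Tnf and Tnfsf14 are all above the WT points, those of Tnfsf4 are all below them, and the groups overlap for the other 5 genes.

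Tnf encodes the founding cytokine of the family and binds both TNF receptors. It lies on the minus strand of chromosome 17 (chr17:35199381-35202007, GRCm38). Its level was 57.7, 56.5, 59.3 and 55.5 CPM in the WT samples S1 to S4 and 128, 174, 118 and 114 CPM in the KO samples S5 to S8. The WT samples were nearly alike, the KO samples were all higher, and S6 was the highest of them. Tnf rose from 57.3 ± 1.64 to 134 ± 27.5 CPM (SD, n = 4 each), a 2.33-fold difference (log2 fold change 1.22, SE 0.13, 95% interval 0.95 to 1.5, edgeR adjusted p = 8.65e-06). Without S6 and with every other alternative tried the call held.

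Lta encodes lymphotoxin alpha, which is secreted as a trimer or held at the membrane together with the product of Ltb. The gene (chr17:35203165-35205351, minus strand) was at 22.6, 36.6, 20.6 and 36.4 CPM in S1 to S4 and at 78.1, 60.6, 70.0 and 71.6 CPM in S5 to S8. The WT samples fell at separate levels, S2 and S4 above S1 and S3, and all KO samples were higher than either. Lta rose from 29.0 ± 8.63 to 70.1 ± 7.20 CPM (SD, n = 4 each), 2.41-fold (log2 fold change 1.27, SE 0.18, 95% interval 0.89 to 1.65, edgeR adjusted p = 0.000163).

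Ltb encodes lymphotoxin beta, the membrane partner of lymphotoxin alpha and a ligand of the lymphotoxin beta receptor. It lies on the plus strand (chr17:35194439-35196320), on the other side of Tnf from Lta. The levels were 211, 228, 150 and 227 CPM in S1 to S4 and 212, 178, 244 and 232 CPM in S5 to S8, and the groups overlapped. The difference was 0.08 on the log2 scale (SE 0.13, 95% interval -0.20 to 0.36, edgeR adjusted p = 0.779), and this interval excludes a 1.5-fold difference in either direction. Without S3, the lowest WT sample, the log2 difference turned to -0.041.

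Ratios within a sample compare these neighbours independently of library scaling. The log2 ratio of Tnf to Ltb counts was -1.81 ± 0.33 in WT and -0.70 ± 0.47 in KO (SD, n = 4 each), a difference of 1.11 (exact permutation p = 0.0286, adjusted 0.0429 over the 3 ratios computed). For Lta over Ltb it was -2.84 ± 0.27 in WT and -1.62 ± 0.16 in KO, a difference of 1.22 (exact permutation p = 0.0286, adjusted 0.0429). The ratio of Tnf to Lta differed by -0.11 (exact permutation p = 0.971, adjusted 0.971). Within KO the latter ratio was 1.52 in S6 and 0.67 to 0.76 in the other samples, since S6 had the highest Tnf and the lowest Lta of the group.

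Around the Tnf start, 19 annotated genes start within 50 kb of Tnf, Lta or Ltb, with these genes included. Of the 19, 14 were tested, and Tnf and Lta were the only ones called. Nfkbil1, 33.785 kb from the Tnf start, went from 10.8 ± 2.45 CPM to 17.7 ± 3.48 CPM (SD, n = 4 each), with an edgeR adjusted p of 0.0523. All its KO samples lay above all WT samples, as for 8.99% of all genes. Prrc2a, at -37.11 kb, on the Ltb side, had a log2 fold change of 0.28 and an edgeR adjusted p of 0.0409. Ddx39b differed by 0.14, Atp6v1g2 by 0.38, Lst1 by 0.30 and Aif1, a macrophage gene, by -0.97 on the log2 scale, none of them called. The annotation places microRNA genes within Lta (Mir6974) and Ltb (Mir6973a), whose counts were at most 18 and 73 in a sample. Of the other annotated genes near the locus, Gm23442, Gm17705, Gm16181, Gm25128 and Mir8094 were tested and not called.

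**Figure D2:**
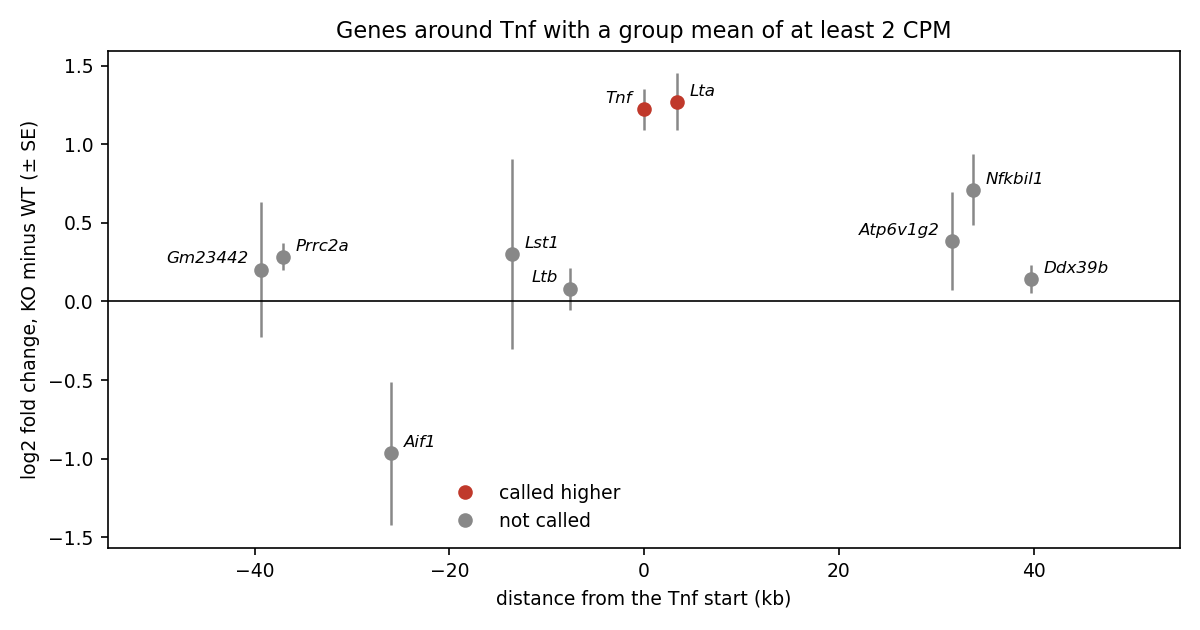
Log2 fold change (KO minus WT, bars ± SE) of the genes around Tnf with a group mean of at least 2 CPM, against the distance of their start from the Tnf start in kb. Tnf at 1.22 and Lta at 1.27 stand above their neighbours, Ltb is at 0.08, and Nfkbil1 at 0.71 was not called.

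Tnfsf14 encodes LIGHT, which binds the lymphotoxin beta receptor and HVEM (Tnfrsf14). The gene (chr17:57189492-57194177, minus strand) was at 21.3, 22.7, 30.2 and 30.2 CPM in S1 to S4 and at 49.6, 36.4, 48.2 and 47.4 CPM in S5 to S8. Each KO sample was higher, with S6 nearest to WT. Tnfsf14 rose from 26.1 ± 4.75 to 45.4 ± 6.04 CPM (SD, n = 4 each), 1.74-fold (log2 fold change 0.80, SE 0.16, 95% interval 0.46 to 1.15, edgeR adjusted p = 0.00355). The call was lost without S1 (edgeR adjusted p = 0.0126), without S2 (0.0186) and without S7 (0.0139), and a test against a fold change of 1.5 itself (edgeR's glmTreat) gave an adjusted p of 0.433.

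Cd40lg encodes CD40 ligand, which activates antigen-presenting cells through CD40 and is known best from CD4+ helper T cells. It was the least abundant ligand gene in WT (chrX:57212143-57224042, plus strand), with 52, 37, 27 and 23 counts in S1 to S4 and 188, 228, 95 and 298 counts in S5 to S8. In CPM these are 3.02, 2.02, 2.20 and 1.90 in WT and 12.3, 18.4, 7.93 and 10.5 in KO. No KO sample was near the WT range, and the KO samples differed among themselves more than the WT samples did. Cd40lg rose from 2.28 ± 0.51 to 12.3 ± 4.47 CPM (SD, n = 4 each), 5.34-fold, the greatest fold difference of the 10 genes (log2 fold change 2.42, SE 0.33, 95% interval 1.71 to 3.12, edgeR adjusted p = 0.000126). It was called in all 16 alternatives, with log2 fold changes of 2.16 (without S6) to 2.59.

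Of the 3 markers of CD4+ T cells, 1 was called higher in KO together with Cd40lg. Cd4, which the sort did not select for, was at 1.86, 6.87, 4.41 and 5.03 CPM in S1 to S4 and at 15.2, 26.2, 7.26 and 8.55 CPM in S5 to S8, with an edgeR adjusted p of 0.0161. The KO samples had the same order for both genes, S6 first, then S5, S8 and S7. The WT samples did not share an order, as S1 had the highest Cd40lg (3.02 CPM) and the lowest Cd4 (1.86 CPM). Zbtb7b, the transcription factor of the CD4 lineage, was at 44.6 ± 6.85 CPM in WT and 101.6 ± 6.66 CPM in KO (SD, n = 4 each) and was called higher (edgeR adjusted p = 9.31e-06), and Foxp3 was at 1.10 and 2.42 CPM and was not called. The summed level of the 3 CD4 T cell markers was 37.1 to 54.8 CPM in WT and 111 to 137 CPM in KO, and no marker was at 0 in all samples. Zbtb7b made up most of this sum in every sample. Its order in KO was another one, S6 first, then S7, S8 and S5. The summed level of the CD8 T cell markers was 3553 to 4177 CPM in WT and 3217 to 4012 CPM in KO. This sum includes Cd44, which rose from 433 to 785 CPM, while the median log2 fold change of the list was -0.27. Cd8b1 (346 and 264 CPM) and Cd3g (185 and 144 CPM) had every KO sample below every WT sample, as did 8.28% of all genes. Neither was called (edgeR adjusted p = 0.0158 and 0.0505). The part of CD4+ cells in the Cd40lg result was not tested.

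Tnfsf4 encodes OX40 ligand, which is known from antigen-presenting cells and activated T cells. The gene (chr1:161395409-161418410, plus strand) was at 20.4, 33.0, 27.3 and 20.04 CPM in S1 to S4 and at 12.3, 11.7, 7.51 and 14.2 CPM in S5 to S8, so that the highest KO sample was below the lowest WT sample. It fell from 25.2 ± 6.19 to 11.4 ± 2.82 CPM (SD, n = 4 each), 2.19-fold lower (log2 fold change -1.13, SE 0.23, 95% interval -1.61 to -0.65, edgeR adjusted p = 0.00326). Without S2, S3 or S7 the adjusted p was 0.0208, 0.0124 and 0.0116 and the call was lost, while the log2 fold change was -0.97, -1.09 and -0.98. Markers of macrophages and monocytes, which can make OX40 ligand, fell too: 10 of the 12 tested were called lower, and the summed level of the list was 291 to 826 CPM in WT and 58.7 to 98.1 CPM in KO. S3 had the most of these markers, and S2 the highest Tnfsf4. The part of these cells in the Tnfsf4 result was not tested. Macrophages also make Tnf, which was higher in KO, and their part in the Tnf result was not tested either. Dendritic cell markers summed to 12.8 to 17.9 CPM in WT and 3.64 to 8.99 CPM in KO. Zbtb46 made up most of this sum, at 12.8 CPM in WT and 6.01 CPM in KO, and was not called (edgeR adjusted p = 0.0203). Flt3, Xcr1, Clec9a and Siglech were under the filter on low counts.

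Fasl and Tnfsf10 encode the ligands of death receptors, Fas ligand and TRAIL. Fasl was at 120 ± 13.6 CPM in WT and 145 ± 18.6 CPM in KO (SD, n = 4 each), with samples from 106 to 138 CPM and from 118 to 161 CPM. The groups overlapped, and the log2 difference was 0.27 (SE 0.12, 95% interval 0.03 to 0.52, edgeR adjusted p = 0.157). Tnfsf10 was at 143 ± 20.5 and 135 ± 22.7 CPM, a log2 difference of -0.09 (SE 0.13, 95% interval -0.37 to 0.19, edgeR adjusted p = 0.744). For both genes a 1.5-fold difference lay outside the interval.

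Tnfsf11, which encodes RANK ligand, was at 63.1 ± 9.05 CPM in WT and 52.7 ± 10.5 CPM in KO, a log2 difference of -0.26 (SE 0.15, 95% interval -0.58 to 0.06, edgeR adjusted p = 0.313). In KO, S5 was at 68.4 CPM, within the WT range, and S6 to S8 were at 46.7 to 48.3 CPM, below the lowest WT sample. Tnfsf8 encodes CD30 ligand and had the widest spread within a group relative to its mean. It was at 15.1, 25.1, 23.7 and 25.1 CPM in S1 to S4 and at 20.6, 7.27, 7.26 and 19.9 CPM in S5 to S8. The KO samples thus fell at separate levels, S5 and S8 within the WT range and S6 and S7 below it. The log2 difference was -0.68 (SE 0.31, 95% interval -1.34 to -0.01, edgeR adjusted p = 0.197), so that with this spread the interval runs from nearly no difference to one above 1.5-fold.

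**Figure D3:**
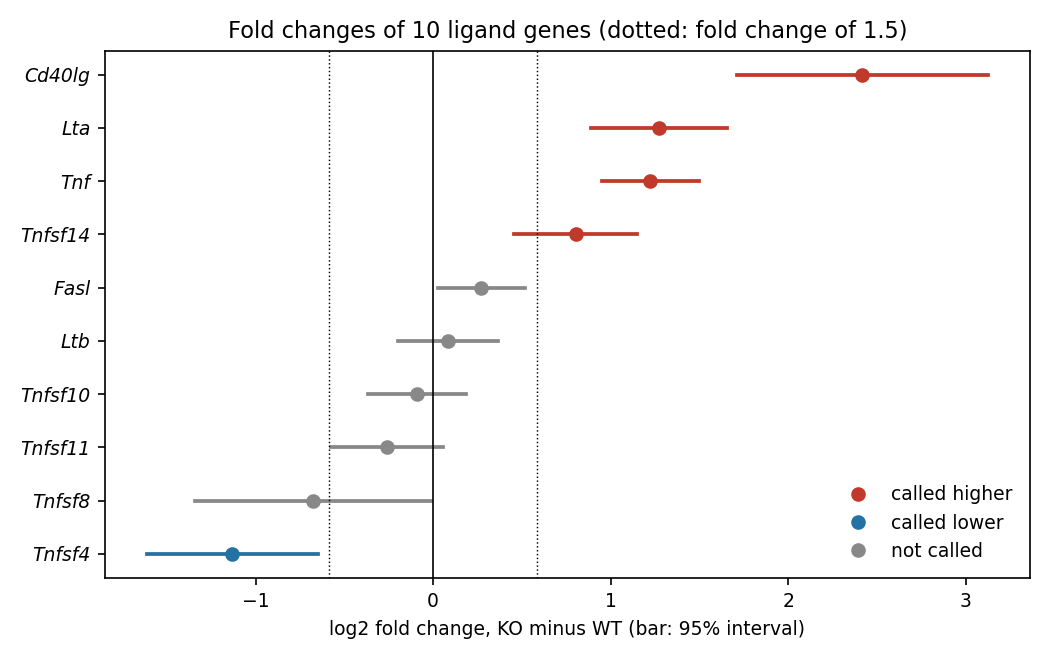
Log2 fold changes (KO minus WT) of the 10 ligand genes with 95% intervals from edgeR's quasi-likelihood fit and dotted lines at a fold change of 1.5 in each direction. The intervals of Cd40lg, Lta and Tnf lie wholly above the upper line, that of Tnfsf14 crosses it, and that of Tnfsf4, at -1.61 to -0.65, lies below the lower one.

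To compare levels between genes, CPM were divided by the exon length of each gene (RPKM). In WT, Ltb led with 135 ± 24.4 RPKM, then Fasl with 61.9 ± 7.03 and Tnf with 34.9 ± 1.00 RPKM (SD, n = 4), with no overlap of sample ranges between these neighbours or between Tnf and the next gene. Tnfsf11 (28.2), Tnfsf10 (27.2), Lta (20.99), Tnfsf14 (14.1) and Tnfsf4 (13.7 RPKM) followed, and neighbours in this run overlapped. Tnfsf8 at 5.84 ± 1.26 and Cd40lg at 1.83 ± 0.41 RPKM were last, each apart from its neighbours. In KO, Ltb again led with 143 ± 19.1 RPKM, followed by Tnf at 81.6 ± 16.8 and Fasl at 74.7 ± 9.62, which overlapped, and then by Lta at 50.7 ± 5.21 RPKM, apart from its neighbours. The order of Tnf and Fasl rested on S6: Tnf was below Fasl in 3 of the 4 KO samples, and without S6 the means were 73.4 RPKM for Tnf and 79.2 RPKM for Fasl. Tnfsf10 (25.6), Tnfsf14 (24.6) and Tnfsf11 (23.6 RPKM) overlapped, as did Cd40lg (9.84), Tnfsf4 (6.21) and Tnfsf8 (3.62 RPKM), so that Cd40lg was no longer the lowest by its mean. The summed RPKM of the 10 genes was 308 to 365 in WT and 414 to 468 in KO. Tnf took 10.2% of this sum on average in WT and 18.6% in KO, and Lta took 6.04% and 11.4%, while Ltb took 39.0% and 32.2%.

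**Figure D4:**
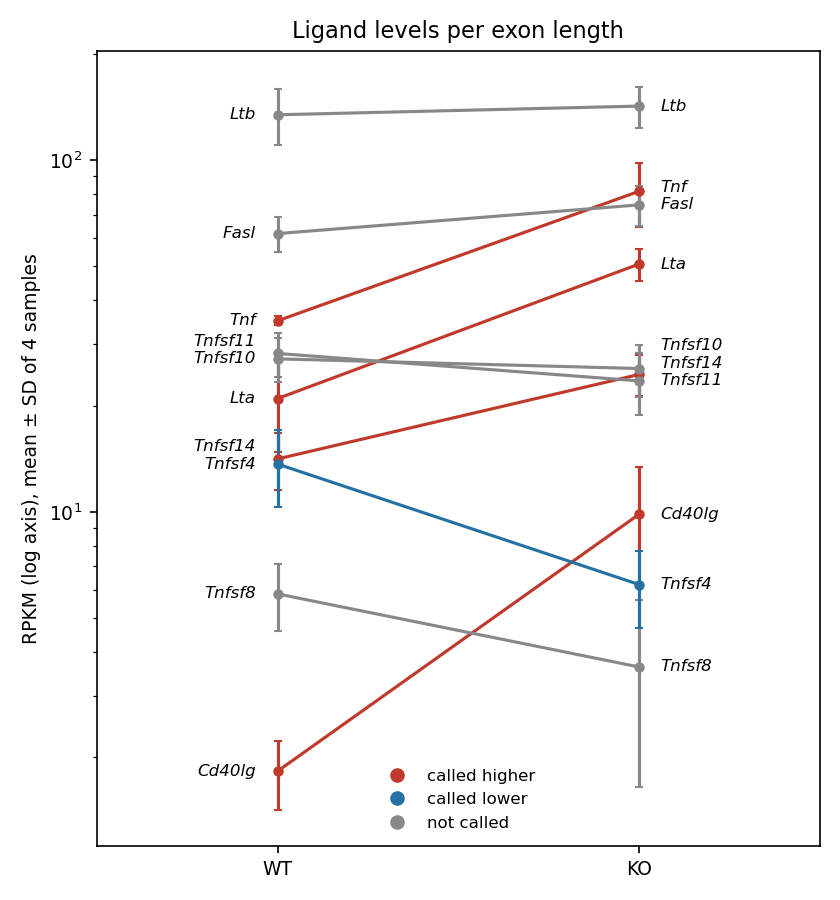
Level per exon length of each ligand gene in WT and KO, as RPKM on a log axis, mean ± SD of 4 samples, coloured by call. Ltb is highest in both groups, Tnf is below Fasl in WT (34.9 against 61.9 RPKM) and overlaps it in KO (81.6 against 74.7, with Tnf the lower in 3 of 4 samples), and the lines of Cd40lg and Tnfsf4 cross.

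Receptors of these ligands were measured in the same RNA. Of 13 on the list, 11 were tested, 2 rose, 2 fell and 7 were not called. Among all genes tested, 2.91% were called higher and 1.99% lower. The median log2 fold change of the list was 0.20, beside -0.01 over all genes tested. Tnfrsf8, which encodes CD30, the receptor of the Tnfsf8 product, went from 0.52 to 1.55 CPM in the WT samples to 14.0 to 22.6 CPM in the KO samples (log2 fold change 4.07, SE 0.33, edgeR adjusted p = 4.77e-07). Fas, the receptor of Fas ligand, rose from 14.1 ± 0.85 to 32.3 ± 4.17 CPM (log2 fold change 1.19, SE 0.16, edgeR adjusted p = 0.000122). Fas thus rose while Fasl was not called.

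Tnfrsf4, which encodes OX40, fell from 98.7 ± 15.1 to 48.6 ± 11.2 CPM (log2 fold change -1.02, SE 0.15, edgeR adjusted p = 0.00031), so that both the ligand and the receptor of the OX40 pair fell. Tnfrsf11a, which encodes RANK, was counted 87, 51, 109 and 46 times in S1 to S4 and 12, 0, 0 and 0 times in S5 to S8 (edgeR adjusted p = 0.00579). With DESeq2 its adjusted p was 0.0387 and the call was lost. RANK is known from myeloid cells, whose markers had the same direction, and the part of those cells was not tested. Cd40, the receptor of CD40 ligand, had at most 29 counts in a sample and was not called (edgeR adjusted p = 0.181).

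The receptors of the other ligands that rose were not called. Tnfrsf1a was at 30.8 and 30.6 CPM. Tnfrsf1b, the TNF receptor of activated T cells, was at 337 ± 23.2 and 395 ± 24.0 CPM, with an edgeR adjusted p of 0.115. All its KO samples lay above all WT samples, as for 8.99% of all genes. Tnfrsf14 was at 19.8 and 18.3 CPM. Ltbr, which lymphocytes lack, was under the filter on low counts, at 2.76 ± 1.62 CPM in WT and 0.27 ± 0.22 CPM in KO. DESeq2, which was run without that filter, gave Ltbr an adjusted p of 0.0017 and called it lower.

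**Figure D5:**
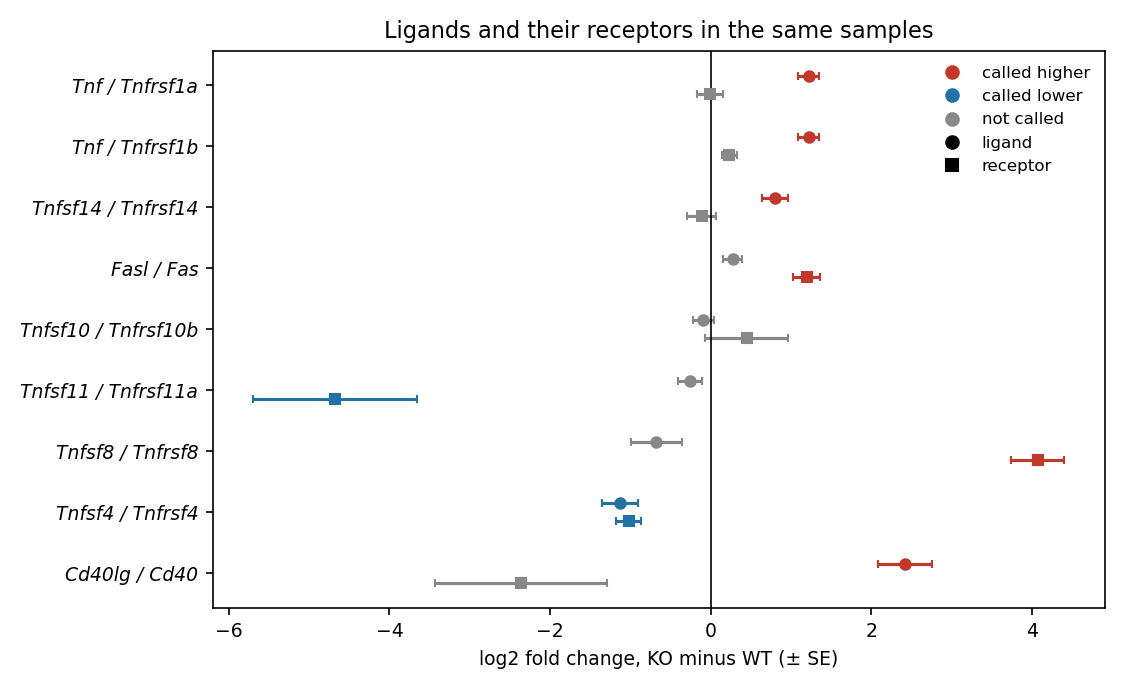
Log2 fold changes (KO minus WT, ± SE) of ligand genes (circles) and of receptor genes (squares) in the same samples, a pair per row, coloured by call. Tnfsf4 and Tnfrsf4 are both lower (-1.13 and -1.02), Fas is higher at 1.19 beside Fasl at 0.27, and Tnfrsf8 is higher at 4.07 beside Tnfsf8 at -0.68.

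The family members outside the 10 were mostly at low levels. Of 8 on the list, 3 were tested and 1 rose, where 2.91% of all genes did. This was Tnfsf9, which encodes the ligand of the costimulatory receptor Tnfrsf9. Tnfsf9 was at 14.6, 17.1, 13.8 and 14.0 CPM in WT and 26.1, 28.6, 32.4 and 23.0 CPM in KO (log2 fold change 0.88, SE 0.17, edgeR adjusted p = 0.00282). Its start lies 88.85 kb from that of Tnfsf14 on chromosome 17, with Cd70 between them. Cd70 was at 1.96 ± 0.81 and 1.14 ± 1.07 CPM and was not called. The span of Gm11110 overlaps that of Tnfsf9 in the annotation, and no source states whether counting used strand, so reads shared by the pair could not be assigned. Tnfsf12 was under the filter on low counts, with at most 27 counts in a WT sample and 0 in every KO sample, and DESeq2, run without that filter, called it lower (adjusted p = 0.00577). Tnfsf13b was not called (15.8 and 22.1 CPM, edgeR adjusted p = 0.16), and Tnfsf13, Tnfsf15 and Eda had 0 counts in every sample, which allows at most 0.106 to 0.25 CPM by counting error alone.

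The signalling chain downstream of the receptors was read over 3 lists, beside 2.91% of all genes called higher and 1.99% lower. Traf5, an adaptor of several costimulatory receptors, was the only one of 15 receptor-proximal genes called, at 31.3 ± 1.79 CPM in WT and 54.7 ± 12.3 CPM in KO (log2 fold change 0.81, SE 0.16, edgeR adjusted p = 0.00276). None of the 8 genes of NF-kB subunits and kinases was called by edgeR, with 3 at an unadjusted p under 0.05, or by DESeq2. Among them Rel had an adjusted p of 0.00813 and a log2 fold change of 0.45, under the fold threshold. Of 8 feedback inhibitors, Nfkbid, a nuclear inhibitor protein that acts with NF-kB subunits, rose from 60.0 ± 6.01 to 96.5 ± 22.1 CPM (log2 fold change 0.68, SE 0.14, edgeR adjusted p = 0.00474), and Tnfaip3 was at 1507 and 1592 CPM and was not called. The median log2 fold changes of these 3 lists were -0.04, -0.14 and -0.05, beside -0.01 over all genes tested.

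Lists of factors that act on the ligands themselves gave these counts. On a list of 14 NFAT, AP-1, EGR and IRF factors of ligand transcription, 3 rose, where 2.91% of all genes did: Irf4 from 189 ± 26.4 to 389 ± 42.8 CPM (edgeR adjusted p = 1.21e-05), Egr2 from 34.5 ± 5.34 to 64.5 ± 13.3 CPM (0.00128) and Egr3 from 39.1 ± 6.32 to 66.5 ± 9.50 CPM (0.00221). The genes Egr2 and Egr3 encode early growth response factors and Irf4 a factor induced by T cell receptor signals. None of the NFAT genes (Nfatc1, Nfatc2 and Nfatc3) or AP-1 genes (Jun, Junb, Jund, Fos, Fosb, Fosl2 and Batf) on it was called by edgeR, and DESeq2 called Irf4, Egr2 and Egr3 alone of the list. Fosb had an edgeR adjusted p of 0.00594 at a log2 fold change of 0.53, under the fold threshold. None of the 9 genes of ligand mRNA decay was called by edgeR, with 5 at an unadjusted p under 0.05 and a median log2 fold change of 0.24, or by DESeq2. Of 7 shedding and cleavage genes tested, Rhbdf2 rose from 63.6 ± 11.7 to 127.6 ± 18.2 CPM (log2 fold change 1.01, SE 0.14, edgeR adjusted p = 0.000132). Its product is needed for the maturation of the protease that releases soluble TNF, encoded by Adam17, which was at 94.2 and 94.3 CPM.

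The genes whose log2 CPM followed each called ligand most closely over the 8 samples are given as a description, by Pearson's r among 10940 genes with a mean log2 CPM above 2. The samples come from groups that differ for each of these ligands, so any gene that differs between the groups in the same direction scores high. For Tnf they were Sestd1 (r = 0.986), Cd86 (0.985) and Gm18537 (0.985), and for Lta they were Plxnb1 (0.982), Syngr3 (0.9753) and Gm11110 (0.974). For Tnfsf14, Tec (0.978) and Hid1 (0.971) are given. For Cd40lg they were Stxbp5 (0.988), Tet2 (0.986) and Tnf itself (0.985). For Tnfsf4 they were Penk (0.9747), Dnmbp (0.971) and Fuca1 (0.970).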

How the data were processed

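The deposited data are raw gene counts of RNA-seq libraries from ribosomal RNA-depleted total RNA. For these, the authors used STAR on GRCm38 and then featureCounts with GENCODE genes, and the deposited counts were neither normalized nor pooled. Whether counting used strand is not given in the sources used here. Columns, numbered only, were assigned to WT and KO by the numbering of the table and the legend of the study's sample plot, and could not be matched to replicate numbers.

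Names, coordinates and exon lengths came from a GENCODE annotation of GRCm38 (release M21), which matched 55154 of 55335 gene IDs. Genes were filtered with filterByExpr, scaled with TMM and tested with edgeR 4.0.16 in R 4.3.3 (glmQLFit and glmQLFTest, no covariates), with calls at an adjusted p under 0.01 over 15378 genes and a fold change above 1.5. SE was taken as the log2 fold change, without its sign, divided by the root of F. For single values an exact permutation test (two-sided, 70 arrangements) was run on log2 CPM (prior count 2) or log2 count ratios (0.5 added). The fit was tested on simulated data. In each of the 12 pairs within a group the counts differed beyond sampling noise (median chi-square at least 5.07, noise alone 0.455). The 95% intervals of fold changes come from the edgeR fit and include the spread between samples, while floors of 3 counts cover counting error only.

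The ligands, the lists of related genes and the markers were chosen with earlier results of these data known. Named were all 10 ligand genes, called genes of each list, receptors of called ligands, genes within 50 kb of the Tnf locus and the 3 genes most like each called ligand, of which 1 is not reported here. Other genes of the lists were named after their values were seen. Alternatives were other scalings, filters, DESeq2 1.42.0, glmTreat, an adjusted p of 0.05, GC offsets (mgcv 1.9.3), transcript lengths and leaving out each sample.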

Additional observations from a re-analysis of the deposited data

Results flagged for a closer look

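In 5 of the 28 groups of 4 samples tested for a lone sample (each ligand gene, each ratio and Kdm1a in WT and in KO, on the log2 scale), the gap of the highest or lowest sample to the next took more of the range than Dixon's 95% critical value for 4 samples. Chance flags about 1 in 20 groups, or 1.4 here. Tnfsf14 was low in the KO sample S6, at 5.19 log2 CPM against 5.57 to 5.64 in the others (gap over range 0.849). Tnfsf10 was low in the WT sample S1, at 6.82 against 7.23 to 7.30 log2 CPM (0.841). Tnfsf8 was low in S1 as well, at 3.93 against 4.57 to 4.66 log2 CPM (0.885). Tnfsf11 was high in the KO sample S5, at 6.10 against 5.55 to 5.598 log2 CPM (0.913). The log2 ratio of Tnf to Lta was high in S6, at 1.52, where the rest of KO lay between 0.67 and 0.76 (0.903).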

How the results depend on the processing

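Tnf, Lta and Cd40lg were called higher in all 16 alternatives. With glmTreat against a fold change of 1.5, 3 ligand genes were higher and 0 were lower, as Tnfsf14 (adjusted p = 0.433) and Tnfsf4 (adjusted p = 0.087) missed the threshold. Leaving out each sample gave 3 to 4 ligand genes called higher and 0 to 1 called lower, with Tnfsf14 lost without S1, S2 or S7 and Tnfsf4 lost without S2, S3 or S7. The log2 difference of Ltb ranged from -0.041 (without S3) to 0.17 (without S6), and the Tnf to Lta difference ranged from -0.31 to 0.054 over the samples left out, above 0 without S3. With the longest transcript as length, 1 pair of ligand genes in WT (Tnfsf10 and Tnfsf11) changed order. Leaving out a sample changed 0 to 1 pairs in WT (1 without S2 or S4) and 0 to 1 in KO. The latter was 1 without S6 (Tnf and Fasl), and also without S7 or S8, where it was another pair. The other ligand genes kept their direction and their side of the threshold. Over all genes, 447 higher and 306 lower calls became 165 and 130 with glmTreat, 642 and 531 with no filter, 614 and 504 with DESeq2, and 695 and 551 at an adjusted p of 0.05. Without single samples there were 347 to 452 higher and 199 to 303 lower calls, the fewest without S2. No paired analysis was possible because the columns carry no replicate numbers. At this depth Cd40lg rested on 23 to 52 counts in WT, and WT samples average 2 mice.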

Other observations

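The KO sample S6 stood at an end of its group for most ligand genes, as a description of values seen and not tested. In a group of 4 samples every gene has a highest and a lowest sample. How often S6 was at an end over all genes was not computed. It had the highest Tnf (174 CPM) and Cd40lg (18.4 CPM) of the KO samples, and also the highest Rel (306 CPM), Nfkbid (128 CPM) and Cd4 (26.2 CPM). The same sample had the lowest Lta (60.6 CPM), Ltb (178 CPM), Tnfsf14 (36.4 CPM), Fasl (118 CPM) and Tnfsf10 (113.5 CPM) of the group, and the lowest Traf5 (39.8 CPM). Its total was 11858010 counts, the lowest of the KO samples beside S7 at 11977081.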
